A study of Mus musculus with 24 samples.

Results

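In mice, 11 leukaemias carrying a LAP transgene were set against 5 leukaemias without it, and the genes described are those shifted the same way in each LAP group. LAP is an activating C/EBPβ protein made from the gene Cebpb. The 11 LAP tumours, out of 24 samples in the series, are all tumours with LAP in the title: 3 LAP/Blnk preB-ALL, which arose in Blnk knockout mice that also carry LAP, 4 LAP preB-ALL and 4 LAP B-ALL, both from LAP transgenic mice. The 5 tumours without LAP are Blnk preB-ALL of homozygous Blnk knockout mice. PreB-ALL is acute lymphoblastic leukaemia of precursor B cells, and B-ALL is the name the labels give to the other tumour class. Separate arrays of BKO408, a cell line grown out of a Blnk knockout preB-ALL and kept in IL-7, serve as an independent readout: 4 of cells transduced with a Cebpb LAP retrovirus and 4 of cells for which no virus is named. All 8 come from 1 cell line, and the effect of transduction itself cannot be told apart from that of LAP.

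The design limits what the pooled comparison can show. All 5 tumours without LAP are Blnk knockout, whereas 8 of the 11 LAP tumours are not labelled as such, so LAP and Blnk genotype cannot be told apart except in LAP/Blnk against Blnk tumours. The 4 LAP B-ALL differ in tumour class as well. The sources used here give neither the promoter driving the transgene, nor the deleted part of Blnk, nor strain, sex, age, tissue or tumour cell content. Whether the tumours stem from separate animals is likewise unstated, and p-values therefore reflect only how much these samples vary.

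C/EBPβ is a basic leucine zipper transcription factor known for driving myeloid and inflammatory genes, and its forced expression can divert B-cell precursors towards a macrophage fate. BLNK is an adaptor that carries signals from the pre-B-cell receptor (pre-BCR), the checkpoint receptor made of an immunoglobulin heavy chain and the surrogate light chain proteins VpreB and λ5. Signals through BLNK promote the exit from IL-7-driven growth, light-chain rearrangement and differentiation, and mice without it are prone to pre-B-cell leukaemia.

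Every tumour value is a deposited log ratio to the 16-tumour median, read as log2 although the base of the logarithm is not stated. They are not levels, so a probe set cannot be called present or absent and B-cell markers cannot be checked as levels. The marker Cd79a, a signalling chain of the B-cell receptor, lay between -0.59 and 0.65 in the 11 LAP tumours and between -0.30 and 0.29 in the 5 Blnk tumours. Vpreb1, part of the surrogate light chain, was between -8.97 and -8.49 in LAP preB-ALL 2 and 4 and LAP B-ALL 1 to 3. It was between -0.11 and 0.35 in the other 6 LAP tumours and between -0.45 and 0.16 in Blnk tumours. The LAP tumours therefore differed among themselves in this B-cell stage marker. The median SD of a gene was 0.273 over the 11 LAP tumours and 0.207 over the 5 Blnk tumours. Within LAP/Blnk preB-ALL it was 0.157, within LAP preB-ALL 0.236 and within LAP B-ALL 0.188.

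Cebpb was read first, as a check of the labels. On its probe set of the largest spread, the lowest, median and highest of the 11 LAP tumours were -3.11, 0.14 and 0.90, against -3.99, -3.33, -3.19, -4.50 and -1.94 in Blnk tumours 1 to 5. All but 1 of the LAP tumours lay above every Blnk tumour. The exception was the tumour labelled LAP B-ALL 4, whose -3.11 lay inside the Blnk range. LAP exceeded Blnk tumours by 3.19 ± 0.55 (SE), or 9.14-fold (exact two-sided permutation p = 0.000458 over 4368 arrangements, adjusted over 4 probe sets 0.00183). By group the difference was 3.64 for LAP/Blnk preB-ALL, 3.10 for LAP preB-ALL and 2.94 for LAP B-ALL. In limma over all genes the adjusted p was 0.145. The other Cebpb probe sets differed by 0.56 and 0.18 (exact p = 0.346 and 0.130), so the size depends on the probe set. The probe set of the largest spread differed by only 0.15 ± 0.06 in BKO408 cells with LAP (limma adjusted p 0.0855). It therefore did not pick out the transduced cells. The sources used here do not say which part of the transcript each probe set covers.

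The single Blnk probe set had a mean of 0.41 ± 0.65 in LAP tumours and -0.20 ± 0.66 in Blnk tumours (SD, n = 11 and 5), a difference of 0.60 (exact permutation p = 0.106). It was at 0.42, 0.52 and 1.23 in LAP/Blnk preB-ALL 1 to 3, which are labelled Blnk knockout like the 5 Blnk tumours. Whether the probe set lies in the deleted part is not known, so these values are no check of the knockout.

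Across 17097 genes, 0 passed limma's test of LAP against Blnk tumours at a Benjamini-Hochberg adjusted p of 0.05 (percent called 0). The lowest adjusted p was 0.0550, for Vash2. At an unadjusted p under 0.05 there were 1342 genes (7.85%), where 855 would be expected from a uniform p, with 427 higher (2.5%) and 915 lower (5.35%) in LAP tumours. Of these, 391 were higher (2.29% of all genes) and 843 were lower (4.93%) in each of the 3 LAP groups, and 108 did not go the same way in all 3. Without any p, 2633 genes (15.4%) were higher and 3648 (21.3%) lower in all 3 groups. A shift of at least 2-fold in each LAP group was found for 8 genes higher (0.0468%) and 25 lower (0.146%), of which 6 (0.0351%) and 23 (0.135%) also had an unadjusted p under 0.05. The median difference over all genes was -0.01, and 47.4% of genes had a positive one. Because the 3 group differences share the same 5 Blnk tumours, their common direction is a description and carries no test of its own.

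Other fits of the same tumours called between 0 and 12 genes. With the 3 LAP groups weighted equally in a 4-group limma fit, 12 genes passed: B3galt1 was higher, and 11 were lower, among them Vash2, Rnf144a, Chd4, Ddx46, Papola, Prrc2c, Elf2, Gtf3c1, Tbl1x and Thrap3. With limma array weights 4 passed (Vash2, Cebpb, Rnf144a and Mex3a). Without the tumour labelled LAP B-ALL 4, Cebpb (3.48, adjusted p 0.00320) and Vash2 (-1.41, adjusted p 0.0247) passed. Without Blnk preB-ALL 5, Vash2 (-1.57, adjusted p 0.00273) and Setd4 (-1.71, adjusted p 0.0105) passed. When both of these tumours were left out, an alternative chosen after seeing the data, Setd4, Cebpb and Vash2 passed. Their limma adjusted p were 1.12e-05, 0.000195 and 0.000629, and Cebpb and Setd4 also passed in each of the 3 LAP groups singly. For each of these genes, the tumours left out are the LAP and the Blnk tumour lying furthest towards the other group. These p-values are therefore no test of the genes.

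Setd4, a methyltransferase gene, was picked after its values were seen. Of the 11 LAP tumours, 10 lay between -0.32 and 0.10, and the tumour labelled LAP B-ALL 4 reached 1.15. Blnk tumours 1 to 4 had 1.54, 1.38, 2.06 and 1.89, and Blnk preB-ALL 5 had -0.27. These 2 exceptions are the tumours left out above. Over all 16 tumours the Setd4 difference was -1.31 ± 0.31 (limma adjusted p 0.573), and with the replicate number as a block it was -1.68 (adjusted p 0.0450).

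Vash2 encodes vasohibin 2, a tubulin carboxypeptidase linked to angiogenesis. Its lowest, median and highest values in the 11 LAP tumours were -0.59, -0.19 and 0.26, against 0.90, 1.62, 1.39, 1.60 and 0.37 in Blnk tumours 1 to 5. All 11 LAP tumours lay below all 5 Blnk tumours. The difference was -1.37 ± 0.19 (SE), 2.58-fold lower in LAP tumours, with -1.23, -1.53 and -1.31 in LAP/Blnk preB-ALL, LAP preB-ALL and LAP B-ALL.

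Rnf144a, an E3 ubiquitin ligase gene, had -1.76, -0.35 and 0.73 as its lowest, median and highest LAP values, against 1.54, 2.34, 1.75, 1.04 and 1.52 in Blnk tumours. Here too the groups did not overlap, and the difference was -2.04 ± 0.35, or 4.1-fold (limma adjusted p 0.145). Mex3a, which encodes an RNA-binding protein, was chosen after its values were seen. The 3 LAP/Blnk tumours were at -0.35, -0.04 and -0.31, the LAP preB-ALL at 0.17, -0.24, 0.18 and -0.37, and the LAP B-ALL at -0.39, -0.54, -0.59 and 0.04. All 5 Blnk tumours, at 1.01, 1.53, 0.21, 0.81 and 0.56, lay above every LAP tumour. The Mex3a difference was -1.04 ± 0.18 (adjusted p 0.145).

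**Figure D1:**
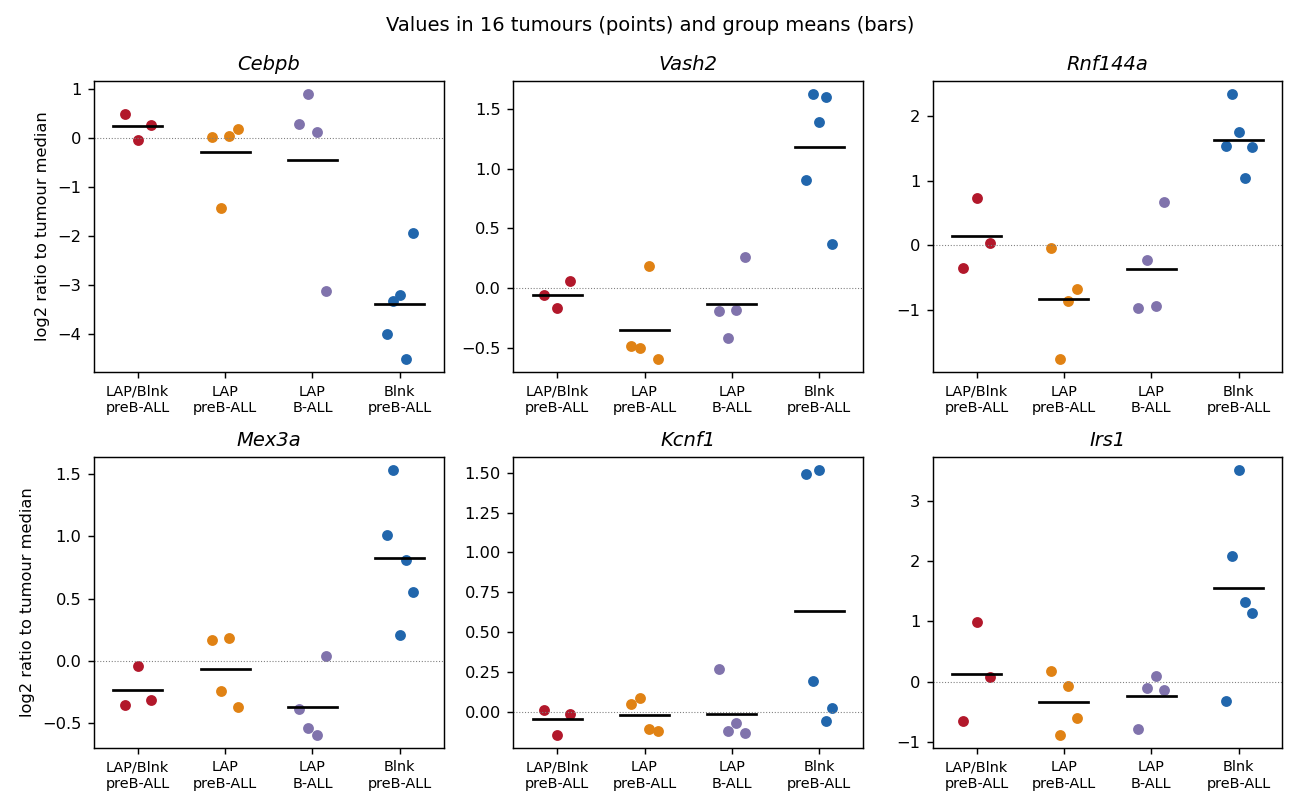
Log2 ratios to the tumour median (vertical axis) of Cebpb, Vash2, Rnf144a, Mex3a, Kcnf1 and Irs1 in 16 tumours, one point each, by group from LAP/Blnk preB-ALL, LAP preB-ALL and LAP B-ALL to Blnk preB-ALL, with bars at the group means. Vash2, Rnf144a and Mex3a separate the 11 LAP from the 5 Blnk tumours, while the tumour labelled LAP B-ALL 4 (-3.11) lies among the Blnk tumours for Cebpb.

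No overlap at all between the 11 LAP and 5 Blnk tumours was found for 3 genes above (0.0175%) and 14 below (0.0819%). For any gene, 1 of the 4368 arrangements of the labels separates it so in a given direction, a share of 0.000229. The 3 genes above do not exceed that share. The 14 below do, and that count was not tested. Without Blnk preB-ALL 5 these 17 genes became 62 of 17097, although fewer tumours separate more often by chance. Of the 14, Nup155, which encodes a nuclear pore protein, differed by -0.44 ± 0.08 and, like Mex3a, was picked after its values were seen. The 3 above were Fgf16, Nckap5los and Rlbp1, and their differences of 0.15, 0.20 and 0.17 were small. After Rnf144a and Vash2, the widest named gaps below belonged to Phf2, Chd4, Uqcrc2 and Nedd4. Phf2, which encodes a histone demethylase, differed by -0.66 ± 0.15 on its probe set of the largest spread, but its 3 other probe sets differed by -0.40, -0.03 and 0.0050. Chd4, the helicase of the NuRD chromatin remodelling complex, differed by -0.70 ± 0.16, with -0.36, -0.58 and -1.07 for LAP/Blnk preB-ALL, LAP preB-ALL and LAP B-ALL. On the BKO408 control arrays Chd4 alone spanned -0.71 to 0.27. Uqcrc2, a core subunit of mitochondrial complex III, differed by -0.31 ± 0.07. Nedd4, an E3 ubiquitin ligase gene, differed by -1.17 ± 0.42, its lowest value being -2.98 in LAP preB-ALL 2.

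Genes shifted the same way in all 3 groups were ranked by the size of the smallest of their 3 group differences. Only those under an unadjusted p of 0.05 were ranked. Since 0 genes passed the adjusted test, all are given as values. After Cebpb, the 11 higher genes were As3mt, Dock8, Glipr1, Itgal, Garem1, Hspa4l, Stk39, Klhl23, Ccdc88b, Pisd-ps3 and B3galt1. Their smallest group difference ran from 1.71 for As3mt to 0.70 for B3galt1, and the first gene outside the list, Zfhx3, had 0.69.

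As3mt encodes the arsenite methyltransferase. It had -1.94, 0.97 and 2.23 as its lowest, median and highest LAP values, against -2.06, -1.71, -1.71, -2.01 and -0.55 in Blnk tumours. The difference was 2.13 ± 0.63, with 9 of 11 LAP tumours above every Blnk tumour; LAP/Blnk preB-ALL 1 and the tumour labelled LAP B-ALL 4 were the low ones. Dock8 encodes a guanine nucleotide exchange factor of lymphocytes and differed by 1.45 ± 0.52. Ccdc88b, which encodes a leukocyte protein of the Hook-related family, differed by 0.95 ± 0.31. These 3 genes lie on chromosome 19, whose 568 genes had a median, relative to other autosomes, of 0.22 to 0.37 in the 3 LAP/Blnk tumours, of -0.13 to 0.04 in the other 8 LAP tumours and of -0.08 to 0.07 in Blnk tumours. The part of this shift in their values was not tested.

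Itgal, the αL chain of the leukocyte integrin LFA-1, was at a median of 0.24 (range -2.07 to 0.95) in LAP tumours, against -2.52, -0.34, -0.09, -1.79 and -0.54 in Blnk tumours. Of the 11 LAP tumours, 9 lay above all Blnk tumours, and the difference was 1.18 ± 0.46. Hspa4l, a heat shock protein gene of the Hsp110 family, differed by 1.23 ± 0.35, and its 3 probe sets went the same way. Stk39, which encodes the kinase SPAK, differed by 1.04 ± 0.37. Glipr1 differed by 1.45 ± 0.55, with its highest value, 2.96, in LAP preB-ALL 2. Garem1, an adaptor of growth factor signalling, differed by 1.63 ± 0.74 on one probe set and by 0.18 on the other.

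B3galt1, a galactosyltransferase gene, had the narrowest range of the 12 higher genes among Blnk tumours, at -0.62, -0.74, -0.77, -0.96 and -0.67. The LAP/Blnk tumours were at 0.95, 1.59 and 1.85, the LAP preB-ALL at 0.43, 0.04, -0.04 and 0.12, and the LAP B-ALL at 0.55, 0.34, -0.25 and -0.87. Of the 11 LAP tumours 10 lay above the Blnk tumours, the tumour labelled LAP B-ALL 4 being the exception. The group differences were 2.22, 0.89 and 0.70 for LAP/Blnk preB-ALL, LAP preB-ALL and LAP B-ALL, and limma's F-test among the LAP groups had an adjusted p of 0.0223. All 4 B3galt1 probe sets differed in the same direction, by 0.51 to 1.18. Klhl23 (0.85 ± 0.30) and the pseudogene Pisd-ps3 (0.86 ± 0.39) complete the higher genes; Pisd-ps3 shares sequence with the gene Pisd, so its probe sets may read both.

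**Figure D2:**
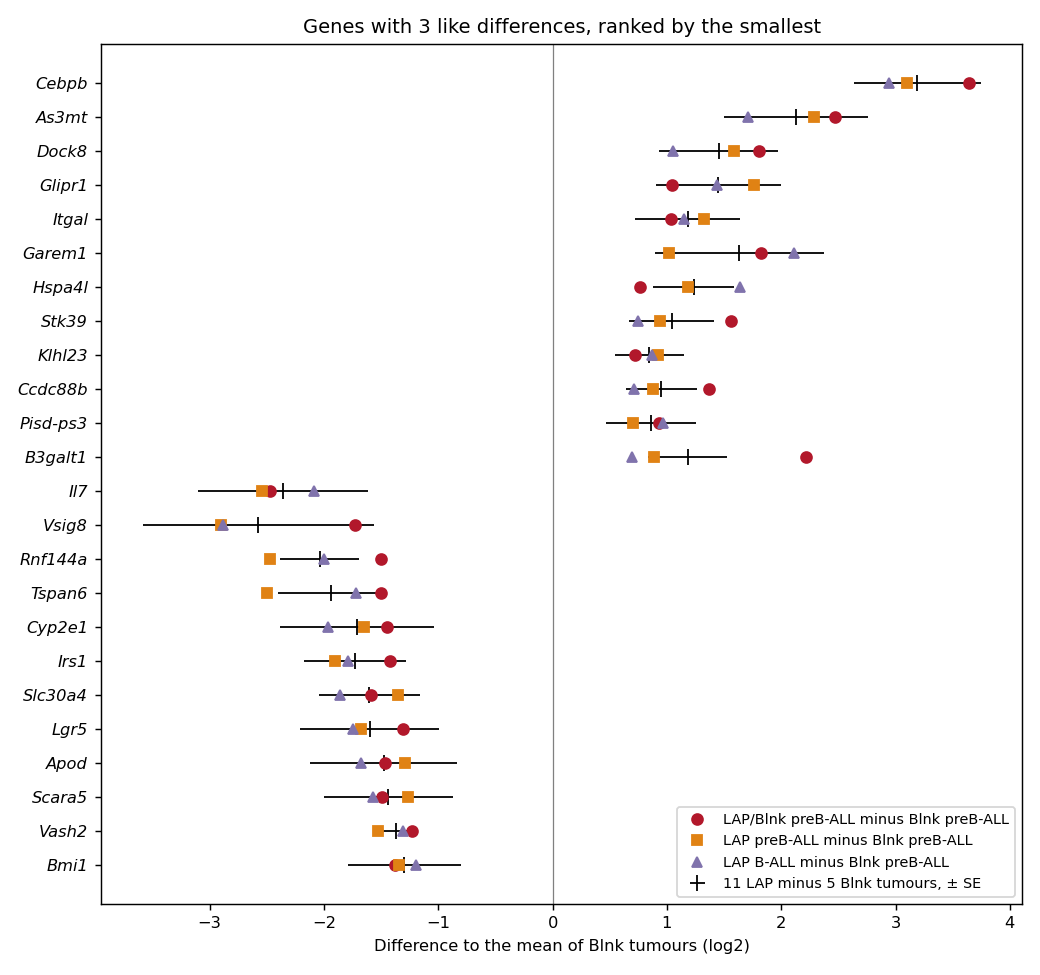
Difference to the mean of the 5 Blnk tumours (log2, horizontal axis) in LAP/Blnk preB-ALL (circles), LAP preB-ALL (squares) and LAP B-ALL (triangles), for the 12 higher and 12 lower genes, with the pooled difference and its SE (vertical tick and line). Each gene has its 3 differences on the same side of 0 because it was chosen for that, and B3galt1 is spread widest (2.22 for LAP/Blnk preB-ALL, 0.70 for LAP B-ALL).

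The 12 lower genes were Il7, Vsig8, Rnf144a, Tspan6, Cyp2e1, Irs1, Slc30a4, Lgr5, Apod, Scara5, Vash2 and Bmi1. Their smallest group difference ran from -2.08 for Il7 to -1.19 for Bmi1. Lrrn4, the first gene outside the list, had -1.19.

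Several of these genes were high in only some of the Blnk tumours. Il7 encodes interleukin 7, the growth factor of B-cell precursors. It lay between -0.21 and 0.82 in LAP tumours, against 5.98, -0.10, -0.15, 4.13 and 2.38 in Blnk tumours 1 to 5. It was high in Blnk tumours 1, 4 and 5 and lay within the LAP range in 2 and 3, and the difference was -2.36 ± 0.74. Bmi1, a Polycomb gene of self-renewing cells, ranged from -0.59 to 0.40 in LAP tumours, against 3.00 and 3.05 in Blnk tumours 3 and 4 and 0.05, -0.40 and -0.02 in the other 3 Blnk tumours. Its difference was -1.30 ± 0.50. Vsig8 was at 3.38 in LAP/Blnk preB-ALL 3 and at most 0.09 in the other LAP tumours, against 7.86 and 4.69 in the same pair of Blnk tumours and at most 0.91 in the other 3. Cyp2e1, a cytochrome P450 gene best known from liver, reached at most 1.05 in LAP tumours, against 5.48 in Blnk preB-ALL 5, 2.55 in Blnk preB-ALL 2 and 1.10 in Blnk preB-ALL 3.

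Others were spread over most Blnk tumours. Irs1 encodes insulin receptor substrate 1, an adaptor of insulin and IGF1 signalling. Its lowest, median and highest LAP values were -0.88, -0.11 and 0.99, against -0.32, 2.09, 3.52, 1.33 and 1.14 in Blnk tumours. Of the 5 Blnk tumours, 4 lay above all LAP tumours, and the difference was -1.73 ± 0.45, or 3.32-fold. Tspan6, a tetraspanin gene, differed by -1.94 ± 0.46, and its second probe set by -1.77. Slc30a4, a zinc transporter gene, had a LAP median of -0.71, against 1.51, 0.53, 0.33, 1.54 and 1.61 in Blnk tumours. Of the 11 LAP tumours, 8 were below all Blnk tumours, and the difference was -1.60 ± 0.44. Lgr5, a receptor for R-spondins that amplifies Wnt signals, differed by -1.60 ± 0.61, with -0.23 on its other probe set.

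Apod, a lipocalin gene, had a LAP median of -0.18, with 3.38 in LAP preB-ALL 3 and 2.17 in the tumour labelled LAP B-ALL 4, against 0.05 in Blnk preB-ALL 1 and 2.02 to 2.56 in the other 4 Blnk tumours. Scara5, a scavenger receptor gene, differed by -1.44 ± 0.56 and by 0.02 on its other probe set. Its highest value was 3.52 in Blnk preB-ALL 5. Over 16 measured stroma and endothelium genes the median was -0.67 to 0.44 in LAP tumours, against 1.32 in Blnk preB-ALL 5 and -0.10 to 0.05 in the other Blnk tumours. Over 17 granulocyte genes it was -0.60 to 2.42 in LAP tumours, against 3.06 in Blnk preB-ALL 5 and -0.71 to 0.04 in the other Blnk tumours. The part of these cell types in the values of Scara5, Cyp2e1 and Apod was not tested. In bulk tumours fewer cells of a type and less RNA per cell cannot be told apart.

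The BKO408 arrays share no sample with the tumours and allow a test of the named genes. There LAP changed 3820 of 17097 genes (22.3%), 1801 up (10.5%) and 2019 down (11.8%), by limma at an adjusted p of 0.05. Of the 12 genes higher in LAP tumours, 2 rose with LAP in the cells: Glipr1 by 0.27 ± 0.05 (adjusted p 0.00591) and Pisd-ps3 by 0.44 ± 0.10 (0.0120). Cebpb, the transduced gene, differed by only 0.15 ± 0.06 (adjusted p 0.0855), with overlapping cell groups. Itgal fell by 0.16 and Hspa4l fell by 0.19 (adjusted p 0.00604 and 0.00339). Of the 12 lower genes, Irs1, Slc30a4 and Lgr5 fell and Bmi1 rose by 0.25 ± 0.03 (adjusted p 0.000207). With 12 genes a side, the 2 that rose and the 3 that fell stand beside 10.5% and 11.8% of all genes.

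Irs1 was at -0.54, -0.43, -0.52 and -0.40 in BKO408 cells with LAP, against 0.40, 0.56, 0.52 and 0.54 without, and fell by 0.98 (SE 0.05; adjusted p 7.45e-07). Slc30a4 fell by 0.33 (adjusted p 2.08e-05). Lgr5 was at -0.33, -0.21, -0.26 and -0.26 in cells with LAP, against 0.21, 0.62, 0.55 and 0.35 without, and fell by 0.70 (adjusted p 0.000255). The cell groups did not overlap for Irs1, Lgr5, Slc30a4, Glipr1 or Pisd-ps3. No overlap was seen either for Bmi1, Itgal and Hspa4l, which went against their tumour direction. The share of all genes that separate so was not counted, so these separations add nothing to the calls. In these cells 22.3% of all genes were called. Vash2 and Rnf144a, which separated the tumours, differed in the cells by 0.16 and -0.13 (adjusted p 0.0908 and 0.0629), the first in the direction opposite to the tumours. Mex3a fell by 0.26 in the cells (adjusted p 0.00299).

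Read the other way, 28 genes rose (0.164%) and 19 fell (0.111%) at least 2-fold with LAP in the cells, and 0 of them passed limma in the tumours, against 0 of all genes. Of the 28, 17 had a positive tumour difference, where 47.4% of all genes did. At an unadjusted p under 0.05, Cyb5r1 was higher, and Cdkn1a, Prrc2c and Ino80 were lower in LAP tumours. Of the 19, 14 had a negative difference and 5 a positive one, and Kcnf1, Rag1, Sh3bgrl2 and Uaca were lower at that level. Over all genes 2.5% were higher and 5.35% lower at that level. The median tumour difference was 0.14 for the first set and -0.34 for the second.

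The 4 largest rises in the cells were Ccl9 (3.85 ± 0.05), Slpi (2.54 ± 0.03), Cybb (2.29 ± 0.05) and Ccr2 (2.25 ± 0.18), a chemokine, a protease inhibitor, a subunit of the phagocyte oxidase and a chemokine receptor of monocytes. In the tumours Ccl9 differed by 0.22 ± 0.76, Slpi by 1.12 ± 1.13, Cybb by 0.86 ± 0.53 and Ccr2 by 0.45 ± 0.49. Ccr2 was the one of these with the same sign in all 3 LAP groups (0.06, 0.58 and 0.62). Slpi was high in single tumours, at 4.92 in LAP preB-ALL 2, 3.37 in LAP preB-ALL 4, 4.11 in LAP B-ALL 2 and 2.28 in Blnk preB-ALL 5.

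Kcnf1, a gene of the voltage-gated potassium channel family, had the largest fall in the cells, 2.48 (SE 0.05; adjusted p 3.16e-09). It was at -1.21, -1.33, -1.19 and -1.17 with LAP, against 1.17, 1.18, 1.29 and 1.36 without. In the tumours the 3 LAP groups differed from Blnk by -0.68, -0.66 and -0.65. The 11 LAP tumours lay between -0.14 and 0.27, against 1.49, 0.19, 1.52, -0.06 and 0.02 in Blnk tumours 1 to 5. Blnk tumours 1 and 3 were high, and the other 3 lay within the LAP range. The other large falls in the cells, in Dntt (-1.91), Kynu (-1.65) and St3gal6 (-1.56), went with tumour differences of -1.13 ± 0.86, 0.41 ± 0.39 and 1.20 ± 0.79.

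**Figure D3:**
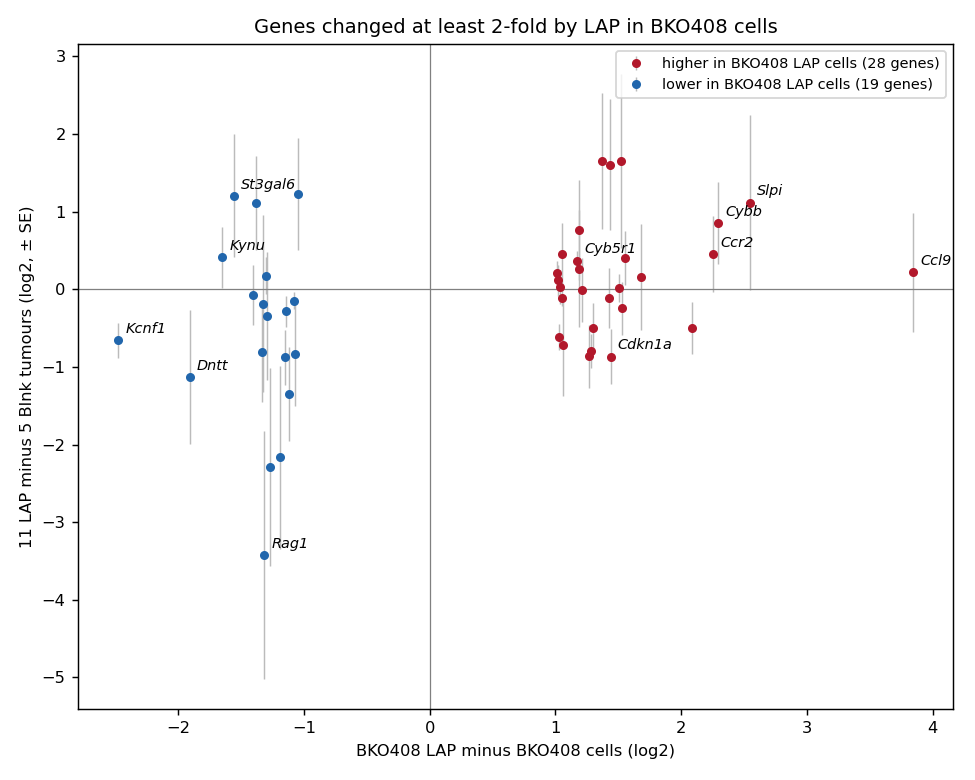
Change with LAP in BKO408 cells (log2, horizontal axis) against the difference between 11 LAP and 5 Blnk tumours (log2 ± SE, vertical axis) for the 28 genes higher and 19 genes lower by at least 2-fold in the cells. The largest cell changes, Ccl9 (3.85) and Kcnf1 (-2.48), have tumour differences of 0.22 and -0.66.

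The sequence upstream of these genes is shown for Kcnf1, the gene with the largest fall in the cells, and for Slpi, picked after the search because it holds the motif; Ccl9, Cybb and Ccr2 do not. C/EBP proteins bind a palindrome, and TTGCNNAA was searched on both strands in the 250 bases before each start site (RefSeq, GRCm38.p6). Matches in Slpi are in capitals, and Kcnf1 (chr12:17176889-17177138, minus strand) has none. Slpi lies at chr2:164356508-164356757, minus strand, with its match starting 241 bases before the start.
Slpi: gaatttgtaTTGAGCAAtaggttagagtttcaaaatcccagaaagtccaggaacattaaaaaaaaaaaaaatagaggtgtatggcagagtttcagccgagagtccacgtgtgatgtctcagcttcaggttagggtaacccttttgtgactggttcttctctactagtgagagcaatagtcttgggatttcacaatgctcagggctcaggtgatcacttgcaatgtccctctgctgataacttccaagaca
Kcnf1: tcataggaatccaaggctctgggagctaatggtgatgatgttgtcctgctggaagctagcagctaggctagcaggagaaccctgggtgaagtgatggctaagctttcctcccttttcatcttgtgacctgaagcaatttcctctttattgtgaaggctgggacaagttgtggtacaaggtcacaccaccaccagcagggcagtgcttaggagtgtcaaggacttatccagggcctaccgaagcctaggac

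Of the 24 named genes, 17 had an upstream window in the table, and 0 of 8 higher and 0 of 9 lower genes held a match. Of the genes changed at least 2-fold in the cells, 3 of 25 that rose and 2 of 15 that fell did. Over all tested genes with a window, 1306 of 13605 did (9.6%). With 50 more bases after the start site, the window first searched, 0 of the 17 and 10.8% of all genes held one. No match says only that these letters are not in the window.

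Gene lists give the wider picture. Of 435 measured genes in 27 lists, 0 passed the adjusted test, and 32 (7.36%) had an unadjusted p under 0.05, 15 higher and 17 lower, against 7.85% of all genes. This share of all lists together is near the background. It does not speak for any single list.

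The pathway of IL-7, which signals through JAK kinases and STAT5, had 5 of 15 measured genes under this level, all higher: Pim1, Pim2, Socs1, Socs3 and Jak3. Of all genes, 2.5% were higher at that level. Over the 15, 10 differences were positive, with 6 genes higher and 3 lower in all 3 LAP groups. Among all genes 47.4% were positive, 15.4% were higher and 21.3% were lower in all 3. The list's largest differences were negative and above that level, at -1.50 ± 1.07 for Socs2, another feedback inhibitor, and -1.03 ± 0.64 for Igfbp4, an IGF-binding protein gene. Pim1 and Pim2 encode survival kinases, Socs1 and Socs3 are feedback inhibitors of JAK signalling, and Jak3 is the kinase of the common γ chain. Pim1, Pim2, Socs1, Socs3 and Jak3 were higher in each LAP group. Pim1 lay between -0.46 and 0.43 in LAP tumours, against -0.37, -2.25, -1.39, 0.15 and -0.18 in Blnk tumours. It was low in Blnk tumours 2 and 3, and the difference was 0.88 ± 0.30. Socs1 differed by 0.64 ± 0.20, or by 0.29, 0.73 and 0.80 in the 3 LAP groups in the order above. Jak3 differed by 0.41 ± 0.14 and Pim2 by 0.69 ± 0.27, while Pim2 differed by only 0.09 in LAP/Blnk preB-ALL. In the cells Pim1 rose by 0.50 and Jak3 fell by 0.17 (adjusted p 3.65e-05 and 0.00152). The list's median difference was 0.28, against -0.01 over all genes, and 0.04 in LAP/Blnk preB-ALL alone.

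Interferon-induced genes were split, with 15 of 26 measured genes positive, 1 higher in all 3 LAP groups and 7 lower in all 3. Among all genes 47.4% were positive, 15.4% were higher and 21.3% were lower in all 3. At an unadjusted p under 0.05 (none passed the adjusted test), Ifit2, Ifit3, Oasl1, Rtp4 and Mx2 were lower and Gbp3 was higher, where 5.35% and 2.5% of all genes were. Ifit3, an interferon-induced antiviral gene, was between -0.72 and 0.83 in LAP tumours, against -0.57, 1.21, 1.55, 0.57 and 2.46 in Blnk tumours. There were 3 Blnk tumours above every LAP tumour, and the difference was -1.11 ± 0.37. Mx2 differed by -0.30 ± 0.09. The list's median difference was 0.07, and -0.98, 0.40 and 0.38 by group.

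Of 15 measured genes of V(D)J recombination and the early pro-B stage, 5 had a positive difference and the rest a negative one. A positive one was found for 47.4% of all genes. Rag1, Lef1, Xrcc5, Xrcc6 and Hmgb1 were lower at an unadjusted p under 0.05, as were 5.35% of all genes, and none passed the adjusted test. The list's median difference was -0.77, or -0.05, -0.95 and -0.69 in the 3 LAP groups in the order above. The first of these groups, LAP/Blnk preB-ALL, differed by -0.05 for Hmgb1, -0.26 for Lef1 and -0.36 for Xrcc6, but by -1.33 for Xrcc5. Xrcc5 and Xrcc6 encode Ku80 and Ku70, which hold broken DNA ends. Xrcc5 was at -0.87, -0.61 and -0.92 in LAP/Blnk preB-ALL, against 0.72, 0.69, 0.53, 0.76 and -0.05 in Blnk tumours, and its pooled difference was -0.81 ± 0.28. Rag1, the recombinase subunit, differed by -3.42 ± 1.59, but by 0.40 in LAP/Blnk preB-ALL. It was at -6.62 to -3.71 in LAP preB-ALL 1, 2 and 4 and LAP B-ALL 1 to 3, and at -0.41 or above in the other LAP tumours.

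Among 24 B-lineage transcription factors, Spi1 and Pou2f2 were higher and Bach2, Id3 and Tcf12 lower at that level. Over all genes 2.5% were higher and 5.35% lower, and 0 of the 24 passed the adjusted test. Spi1 encodes PU.1 and differed by 0.53 ± 0.16, with 0.26, 0.50 and 0.76 in the 3 LAP groups in the order above. Id3, an inhibitor of E proteins, differed by -1.31 ± 0.59 and differed among the LAP groups (limma F-test, adjusted p 0.0162), with -2.77 in LAP preB-ALL. In LAP/Blnk preB-ALL, Id3 differed by only -0.32, Bach2 by -0.15 and Tcf12 by -0.05. Pou2f2 differed there by -0.16, opposite in sign to its pooled difference of 1.03.

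**Figure D4:**
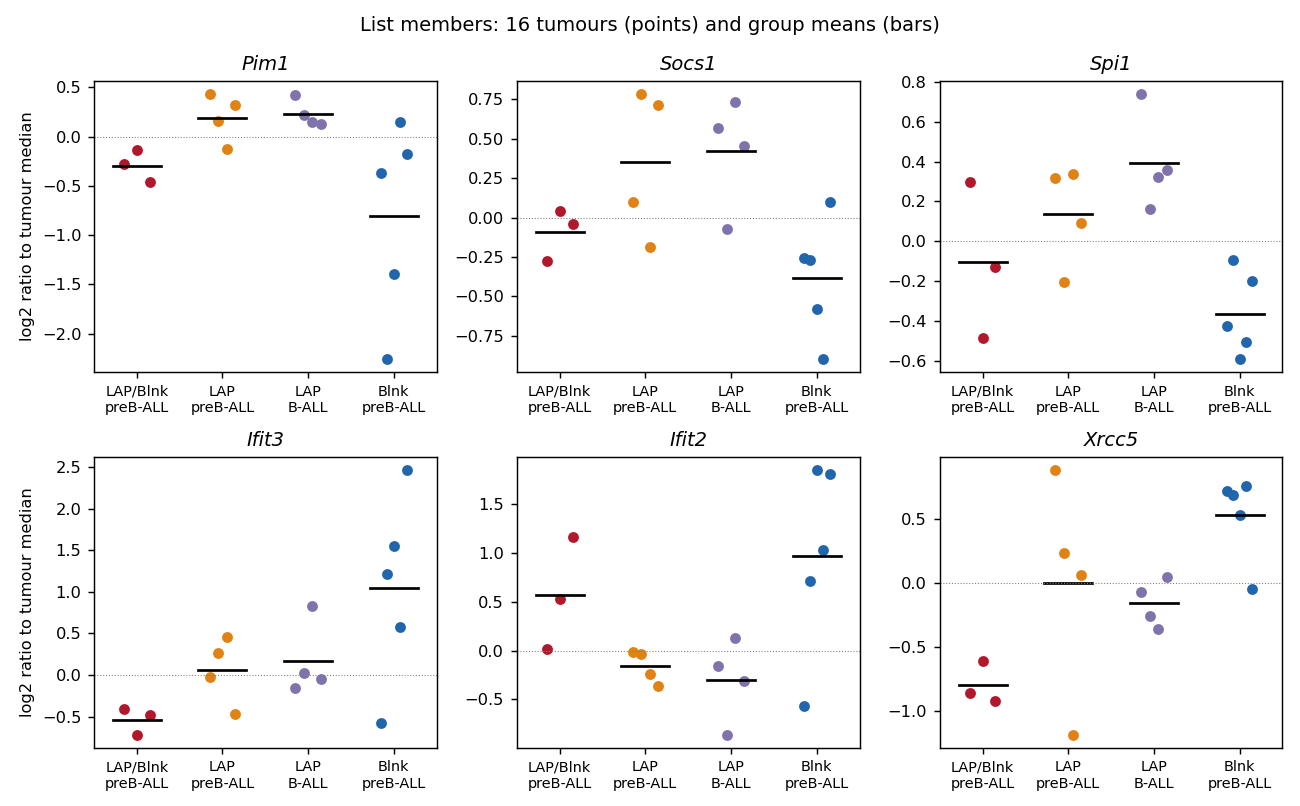
Log2 ratios to the tumour median (vertical axis) of Pim1, Socs1, Spi1, Ifit3, Ifit2 and Xrcc5 in 16 tumours, one point each, with bars at the means of LAP/Blnk preB-ALL, LAP preB-ALL, LAP B-ALL and Blnk preB-ALL from left to right. The groups overlap for all 6 genes, as for Pim1, where Blnk tumours 2 and 3 are low at -2.25 and -1.39.

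Other list members at that level were Pmaip1 (1.36 ± 0.56), which encodes the cell death protein Noxa, and Tal1 (2.13 ± 0.87), a stem and erythroid transcription factor. E2f1 (0.46 ± 0.17), a factor of S-phase entry, was also higher. So were Blk (1.89 ± 0.89), a Src-family kinase gene of B cells, and Tnfrsf13b (0.88 ± 0.34), which encodes the B-cell receptor TACI. Both were higher in all 3 LAP groups, but by only 0.19 and 0.05 in LAP/Blnk preB-ALL. The MHC class II gene H2-DMb1 differed by 1.61 ± 0.73, with -0.40 in LAP/Blnk preB-ALL. Cdkn1a, the p21 inhibitor of the cell cycle, differed by -0.87 ± 0.35, although it rose by 1.44 ± 0.08 with LAP in the cells (adjusted p 1.85e-06). The stress gene Ddit4 (-0.78 ± 0.30) and nucleolin, Ncl (-0.34 ± 0.10), were lower at that level too.

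Some pooled medians hid opposite groups. All 10 MHC class II genes, which present peptides on mature B cells, had a positive pooled difference (median 1.39), while the median was -0.44 for LAP/Blnk preB-ALL, 1.62 for LAP preB-ALL and 2.37 for LAP B-ALL. A positive pooled difference was found for 47.4% of all genes. Over 12 erythroid and platelet genes the median was 1.48, with -0.16 in LAP/Blnk preB-ALL and 3.48 in LAP B-ALL. Their median lay between 4.03 and 4.89 in LAP preB-ALL 4 and LAP B-ALL 1 to 3, between -0.40 and 0.41 in the other LAP tumours and between -0.21 and 0.38 in Blnk tumours. Tal1 had its highest values, 3.39 to 4.55, in those same 4 tumours; the part of erythroid cells in it was not tested.

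**Figure D5:**
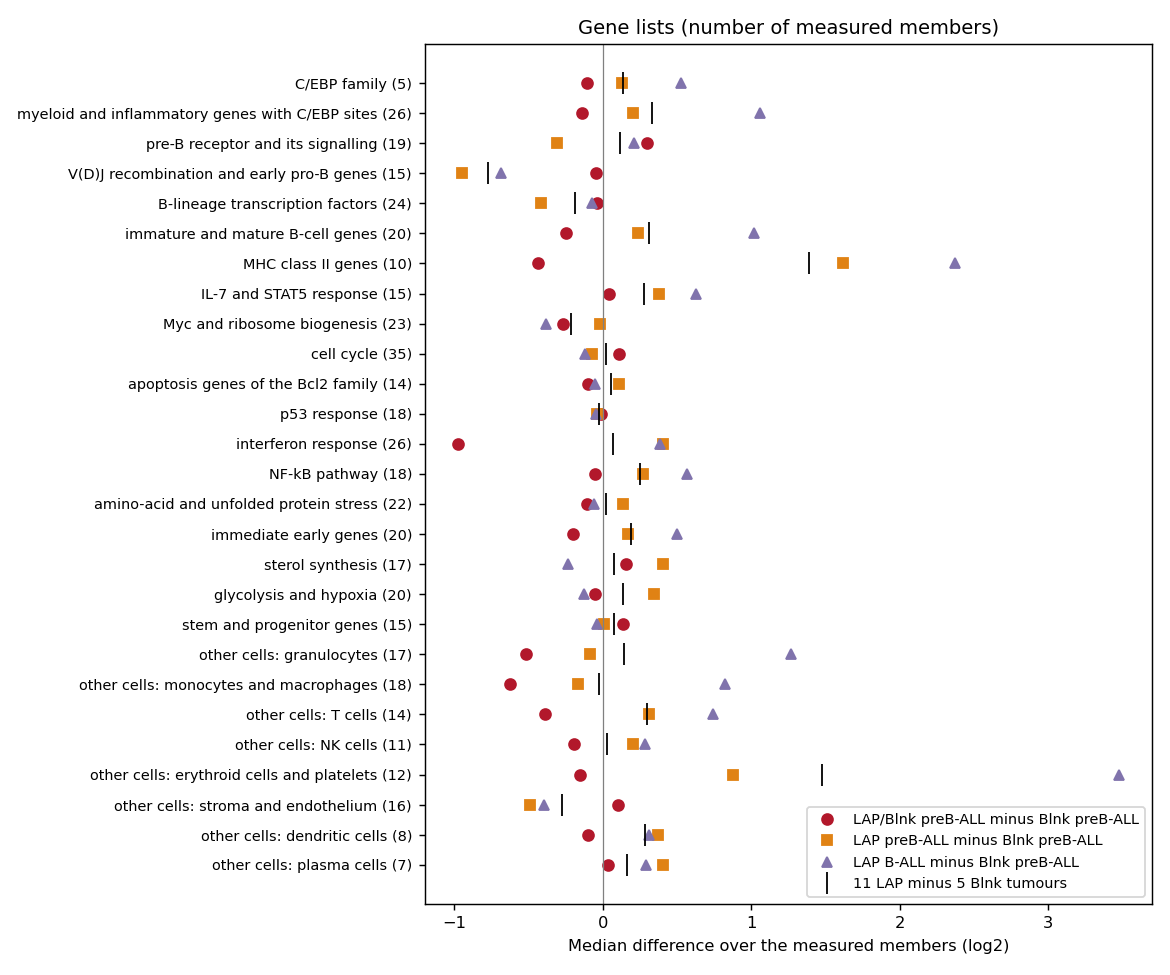
Median difference to Blnk tumours (log2, horizontal axis) over the measured members of 27 gene lists, for LAP/Blnk preB-ALL (circles), LAP preB-ALL (squares), LAP B-ALL (triangles) and all 11 LAP tumours (ticks). MHC class II genes range from -0.44 in LAP/Blnk preB-ALL to 2.37 in LAP B-ALL, and the median of the IL-7 list is positive in all 3.

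The 3 LAP groups differed among themselves for 390 genes (2.28%) by limma's F-test, and for 109 to 1351 when 1 tumour was left out. Against the same Blnk tumours, LAP/Blnk preB-ALL had 3 genes called higher (0.0175%) and 0 lower at an adjusted p of 0.05, with 989 genes (5.78%) at an unadjusted p under 0.05. LAP preB-ALL had 1 higher (0.00585%) and 13 lower (0.076%), with 2255 (13.2%) at that level, and LAP B-ALL 82 higher (0.48%) and 166 lower (0.971%), with 3631 (21.2%). By limma 0 genes passed in all 3 singly, where each gene was given its largest p of 3, and 55 had an unadjusted p under 0.05 in all 3 in 1 direction, 8 higher and 47 lower.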

How the data were processed

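Per the labels' protocols, total RNA was turned into biotinylated cRNA for Affymetrix arrays. The submitters' processing notes name MAS5 alone. The authors' deposited log2 values (base not stated) are centred so that each probe set's median is 0 over the 16 tumours and, separately, over the 8 cell arrays; earlier scaling is unstated, and the number of arrays limits the precision. Of 45141 probe sets, 28898 had 1 symbol (annotation of 2016), 551 several and 15692 none; 28689 matched RefSeq (GRCm38.p6). Each of 17097 genes was tested by the probe set that varied most about the cell and tumour means, ignoring groups; 7180 genes had more than 1.

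LAP and Blnk tumours were compared in R 4.3.3 with limma 3.58.1 (2 groups, moderated two-sided test, Benjamini-Hochberg over all genes, threshold 0.05), and tumour groups or the cell arrays in fits of their own. Only the 2-group fit was tested on simulated data. That simulation held no spread between the LAP groups, unlike these tumours, and the other fits were not simulated. Named genes are the 12 highest and 12 lowest by the smallest of 3 group differences, the widest gaps, list members (the 2 largest differences) and the 4 largest cell changes each way; places were filled at an unadjusted p under 0.05, and list members or cell-changed genes under that level were added after their values were seen, as were Mex3a, Nup155, Setd4 and the genes called by the 4-group fit. Immunoglobulin segments and unnamed transcripts are counted, not named. Members and lists were chosen with earlier results of these data known. The motif window was cut to the bases upstream of the start after a first search. Alternatives changed fit, probe set, filter, normalisation, variance model, weights, block and tumours.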

Additional observations from a re-analysis of the deposited data

Results flagged for a closer look

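Within groups of 4 or 5 tumours, 52 of 447 sets of values had 1 tumour set apart from the others of its group by Dixon's criterion. Chance would flag about 1 in 20 (22.35 expected) if the sets were independent and unselected. They are not, since many genes were picked from these same tumours and some lists share members, so the excess is no test. The tumour labelled LAP B-ALL 4 accounts for more of the 52 than any other: it was the high one in 19 sets and the low one in 5. Values are log2 ratios to the tumour median, each with the value nearest to it in the same group. It lay above the other LAP B-ALL for Slc30a4 (1.28, nearest -1.26), Apod (2.17, nearest -0.35), Vpreb1 (0.14, nearest -8.78), Vpreb2 (0.35, nearest -7.94), Rag1 (2.00, nearest -6.11) and Sox4 (1.13, nearest -4.31). The same held for Lef1 (0.25, nearest -2.26), Xrcc6 (1.13, nearest -0.84), Hmgb1 (-0.0073, nearest -0.62), Socs2 (1.97, nearest -3.64), Igfbp4 (0.51, nearest -1.57) and Mycn (3.88, nearest -0.03). It was also high for Bmf (2.99, nearest -1.09), Tifa (1.14, nearest -1.37), Vegfa (1.23, nearest -1.90), Emcn (0.35, nearest -2.15) and Setd4 (1.15, nearest 0.061). Its list medians stood high as well, in the median of the list for V(D)J recombination (0.25, nearest -0.60) and the median of the list for granulocytes (2.25, nearest 1.10). It lay below the other LAP B-ALL for Dock8 (-2.16, nearest 0.36), Itgal (-2.07, nearest 0.62), E2f1 (-0.35, nearest 0.46), Egr2 (-0.18, nearest 3.61) and Slc4a1 (1.23, nearest 7.23). LAP preB-ALL 2 stood low for Cebpb (-1.41, nearest 0.028), Pisd-ps3 (-0.36, nearest -0.015) and St3gal6 (-0.94, nearest 0.46). LAP preB-ALL 2 stood high for Dock8 (1.94, nearest 0.0087). Blnk preB-ALL 5 stood high for As3mt (-0.55, nearest -1.71), Egr2 (1.15, nearest 0.08), the median of the list for granulocytes (3.06, nearest 0.038) and the median of the list for stroma and endothelium (1.32, nearest 0.051). Blnk preB-ALL 5 stood low for Xrcc5 (-0.048, nearest 0.53). LAP preB-ALL 3 stood high for Cyp2e1 (1.05, nearest -0.075), Apod (3.38, nearest -0.18) and Vash2 (0.18, nearest -0.49). LAP preB-ALL 3 stood low for the median of the list for interferon response (-0.14, nearest 0.41). Blnk preB-ALL 1 stood low for Apod (0.052, nearest 2.02). LAP B-ALL 3 stood high for Ddit3 (1.02, nearest 0.27) and the median of the list for NK cells (1.18, nearest 0.12). LAP B-ALL 3 stood low for the median of the list for pre-B receptor and its signalling (-0.46, nearest 0.35) and the median of the list for sterol synthesis (-0.43, nearest -0.17). Blnk preB-ALL 2 stood low for Vpreb1 (-0.45, nearest -0.0071) and Vpreb2 (-0.98, nearest 0.012). LAP preB-ALL 4 stood low for Bach2 (-5.61, nearest -1.85). LAP preB-ALL 4 stood high for Slc4a1 (7.80, nearest -0.27), Car1 (6.82, nearest 0.037), the median of the list for granulocytes (2.42, nearest -0.41) and the median of the list for erythroid cells and platelets (4.53, nearest -0.14). LAP preB-ALL 1 stood high for Ino80 (-0.076, nearest -0.36). LAP B-ALL 1 stood high for Kcnf1 (0.27, nearest -0.074). Blnk preB-ALL 3 stood high for Dntt (5.79, nearest 0.97). Over all genes limma's F-test found a difference among the 3 LAP groups for 390 (2.28%), or for 109 without LAP/Blnk preB-ALL 3 and 1351 without the tumour labelled LAP B-ALL 4. Of the genes named above or largest in their list, 8 were among the 390, with adjusted p of 0.0223 for B3galt1, 0.0267 for Chd4, 0.0162 for Id3, 0.0233 for Tifa, 0.0427 for Bcl3, 0.0336 for Psat1, 0.00793 for Prrc2c and 0.048 for Ino80. Prrc2c, Chd4 and Ino80 also varied among the BKO408 arrays without LAP, Prrc2c from -1.68 to -0.31. No cause of these patterns was tested.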

How the results depend on the processing

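In the comparison of 11 LAP with 5 Blnk tumours, the count of genes called stayed at 0 with robust variances, a variance trend, quantile normalisation, equal array medians and the mean of a gene's probe sets. It was 12 (1 higher, 11 lower, 11 the same way in all 3 groups) with LAP groups weighted equally, 4 (1, 3 and 4) with array weights, 3 (1, 2 and 3) among more variable genes, and 3, all higher, with LAP/Blnk against Blnk tumours only. Without the tumour labelled LAP B-ALL 4 and Blnk preB-ALL 5, chosen after seeing the data, it was 3 (1, 2 and 3), 2 genes passed in each LAP group singly, and the F-test among LAP groups called 1393. For the 3 genes called, these tumours lay furthest towards the other group, so the calls are no test of them. The 17 of 17097 genes without overlap became 44 without the LAP B-ALL group and 917 with LAP/Blnk only. Fewer tumours separate more often by chance, so these 2 counts do not show more separation. Over all 45141 probe sets the count was 37, and among the more variable genes alone it was 9, so these totals differ too. Over every probe set the F-test called 1188 and the cells changed in 84 at 2-fold. Cebpb differed by 3.64 with LAP/Blnk only (exact permutation, adjusted p 0.0714, n = 3 and 5). All 3 LAP/Blnk tumours lay above all 5 Blnk tumours. The test can give no lower unadjusted p with so few tumours, so this p does not show a weak difference.

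Replicate numbers gave no clear pairing of the samples. Of 21 same-number pairs 6 correlated above 0.1 (r from -0.64 to 0.38, median 0.02). Of 74 other-number pairs 16 did (r from -0.40 to 0.57, median -0.03). With the replicate block 2 genes were called, Vash2 and Setd4, both lower and the same way, and the F-test called 247.

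Leaving out 1 tumour in turn gave 0 to 2 genes called (0 to 1 higher, 0 to 2 lower, 0 to 2 the same way, 0 to 0 singly), 997 (without LAP B-ALL 1) to 1709 (without LAP/Blnk 3) at an unadjusted p under 0.05, 109 (without LAP/Blnk 3) to 1351 (without the tumour labelled LAP B-ALL 4) by the F-test, 17 to 62 (without Blnk 5) without overlap and 2.91 to 3.55 for Cebpb. In the cells 46 to 52 genes changed by 2-fold.

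Of 119 genes checked, 41 turned direction with LAP/Blnk against Blnk only: Ddit3 -0.10, Ccl3 -0.19, Vpreb1 0.30, Vpreb2 0.55, Rag1 0.40, Sox4 0.099, Pou2f2 -0.16, Fcrla -0.34, H2-DMa -0.79, H2-DMb1 -0.40, Socs2 0.15, Mycn 0.28, Ccnd2 -1.86, Gadd45a -0.054, Isg20 -1.15, Gbp2 -0.31, Tifa 0.56, Bcl3 -0.99, Psat1 0.75, Egr2 -0.31, Vegfa 0.0036, Hk1 -0.00050, Cd93 0.72, Camp -0.49, Marco -1.39, Csf1r -0.63, Cd3g -0.74, Cd5 -0.31, Gzmb -0.41, Nkg7 -0.90, Slc4a1 -0.083, Car1 -0.16, Col3a1 0.20, Flt3 -0.23, Itgax -0.090, Jchain -0.56, Edem1 -0.14, Slpi -0.94, Cybb -0.11, Dntt 0.13 and Kynu -0.093. Psat1 (0.043), Camp (-0.21) and Marco (-0.28) turned without the LAP B-ALL group, Chil3 with array weights and with the block (0.13 each), Ccl9 without LAP preB-ALL 3 (-0.039) or Blnk 4 (-0.29), its highest being 0.73 without Blnk 5, and Myc without Blnk 1 (-0.24), its highest being 1.04 without Blnk 2. The cause was not tested. Array values carry no signal over background, so dim probe sets could not be set aside.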

Other observations

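Lists not described above mostly moved apart between the LAP groups. Of 26 myeloid and inflammatory genes with C/EBP sites, 22 had a positive pooled difference, with a median of 0.33; of all genes, 47.4% had one. By group the median was -0.14 for LAP/Blnk preB-ALL, 0.20 for LAP preB-ALL and 1.06 for LAP B-ALL, and 5 genes were higher and 3 lower in all 3 groups, as were 15.4% and 21.3% of all genes. Granulocyte genes had medians of -0.52, -0.09 and 1.27 and monocyte genes -0.63, -0.17 and 0.82 in the same order; the part of these cells in the C/EBP list was not tested. Of 18 NF-kB pathway genes, 16 were positive (median 0.25), but the LAP/Blnk median was -0.05. Of 23 Myc and ribosome biogenesis genes, 4 were positive and 7 were lower in all 3 groups, with a median of -0.21 and with -0.27, -0.02 and -0.38 by group. Cell cycle (35 genes, median 0.02), p53 response (18 genes, -0.03) and Bcl2 family genes (14 genes, 0.05) lay near the median of all genes, -0.01. By limma 0 genes of these lists passed; at an unadjusted p under 0.05 there were 0 to 2 per list.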
